A study of Mus musculus with 5 samples.

Results

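The 8 genes of polyamine metabolism Odc1, Amd1, Srm, Sms, Sat1, Oaz1, Oaz2 and Azin1 were followed through 5 single-cell RNA-seq libraries made from mouse submandibular gland. These were 8 of 31053 genes in the gene list of the 7-day and tissue libraries, and all 8 were also among the 32285 genes of the 11-day list. They were picked by name for their place in the pathway, at a time when results of these data were known. All 8 genes had unique molecular identifiers (UMIs, 1 per captured transcript) in every library.

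Polyamines are small, positively charged molecules that bind RNA and DNA and that growing cells need. Ornithine decarboxylase (Odc1) turns ornithine into putrescine, and the spermidine and spermine synthases (Srm, Sms) extend it with aminopropyl groups supplied by S-adenosylmethionine decarboxylase (Amd1). Spermidine/spermine N1-acetyltransferase (Sat1) acetylates the products for export or breakdown, antizymes (Oaz1, Oaz2) send ornithine decarboxylase to the proteasome, and the antizyme inhibitor (Azin1) binds antizymes and frees the enzyme.

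The study asked how mouse salivary gland organoids (mSGOs) respond to radiation. Untreated mSGOs (control), mSGOs given 7 Gy of photons and mSGOs given 7 Gy of protons (plateau), both on day 5, were collected on day 7. Organoids from 4 C57BL/6 animals were grown in Matrigel in WRY medium, which contains EGF, FGF2, insulin, dexamethasone, Y27632, R-spondin1 and Wnt3a, and this was the same in all 3 libraries. Untreated 11-day mSGOs were grown likewise, from other animals and in a run of their own, per the labels. Fresh submandibular tissue was not irradiated. The labels give an age of 8 to 12 weeks for the 7-day and tissue libraries and none for the 11-day library. For each, 45000 cells that excluded propidium iodide were sorted and loaded. There was 1 library per group, so no test was run. The 7-day libraries were pooled over animals, and the number of animals was not known for the 11-day and tissue libraries. Intervals are at the 95% level and cover counting error only. Differences between animals, cultures or runs cannot be told apart from differences between groups.

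Between 1402 (tissue) and 16929 (photon) barcodes were kept per library, with 5925403 to 32102942 UMIs. The 7-day libraries were shallow, with medians of 899 (control), 1064 (photon) and 965 (proton) UMIs per barcode, and the 11-day (3026.5) and tissue (2378.5) libraries were deeper. Barcodes with at least 2000 UMIs held 75.9% of the control, 47.8% of the photon and 52.9% of the proton library's UMIs. Malat1, a nuclear transcript, reached 1% of UMIs in 16.0%, 9.36% and 8.96% of control, photon and proton barcodes, in 98.8% of 11-day and in 11.3% of tissue barcodes. Between 3 and 79 barcode sequences were found in both libraries of a pair. Levels below are UMIs of the gene per 1e6 UMIs (CPM), summed over a library. In such sums, fewer cells of a type and less RNA per cell cannot be told apart, and because libraries were 3′ counts, levels were compared between libraries and not between genes.

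Of the 8 members, 6 were matched in the RefSeq promoter table (Srm and Azin1 were not). Upstream sequence is shown for Amd1 and Sat1, which had the largest ratios between the photon and proton libraries. Each run is the 250 bases before the annotated start in RefSeq on GRCm38.p6, 5′ to 3′ on the gene's strand. Capitals mark GC boxes (GGGCGG on either strand), which 35.7% of 32851 RefSeq promoter windows hold. Amd1 lies on chromosome 10 (40287458 to 40302188, minus strand), and its window has 1 such match, starting 74 bases before the start site.

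Amd1, chr10:40302189-40302438: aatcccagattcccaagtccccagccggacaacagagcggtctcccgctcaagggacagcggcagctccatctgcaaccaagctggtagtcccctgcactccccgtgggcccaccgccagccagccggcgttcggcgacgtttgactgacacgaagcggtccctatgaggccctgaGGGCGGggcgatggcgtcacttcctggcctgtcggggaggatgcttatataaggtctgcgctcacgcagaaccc

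Sat1 lies on chromosome X (155213126 to 155216449, minus strand), and its window has 2 matches, 72 and 6 bases before the start.

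Sat1, chrX:155216450-155216699: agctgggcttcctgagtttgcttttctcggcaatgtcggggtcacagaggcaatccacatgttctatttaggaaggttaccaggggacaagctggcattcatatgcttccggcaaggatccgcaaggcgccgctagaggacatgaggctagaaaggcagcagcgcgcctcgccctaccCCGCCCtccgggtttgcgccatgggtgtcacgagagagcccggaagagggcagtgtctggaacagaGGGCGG

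Neither window, nor the 50 bases after the start, held CACGTG (E-box, in 7.15% of windows), TGANTCA (AP-1 site, 7.81%), CCAAT (37.4%) or TATAAA (13.6%) on either strand. These are matches of letters, and nothing was measured at these promoters. The Odc1, Sms, Oaz1 and Oaz2 windows were searched in the same way, and matches that overlap each other were all counted. Of the 2 Sms windows, 1 held CACGTG and CCAAT once each and the other held 4 GC boxes. The Odc1 and Oaz2 windows also held 4 GC boxes each, and the Oaz1 window held CCAAT and TATAAA once each.

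The irradiated mSGOs were first compared with the control over whole libraries. A gene was counted as past the fold when its log2 ratio reached 0.5 in size, among genes that had 200 or more UMIs over both libraries and reached 20 CPM in the higher one. Ratios are on the log2 scale with a pseudocount of 1 CPM. For photons 6 members passed this filter and none was past the fold, where 4.14% of all 4353 genes tested were higher and 2.30% lower by that much. For protons 5 members passed and none was past the fold, against 4.76% of genes higher and 2.32% lower. The median ratio of the members that passed was 0.081 for photons and 0.13 for protons, beside medians of 0.081 and 0.10 over all genes. With 5 or 6 genes tested, a count of 0 is near these background shares and sets the members apart in nothing. Odc1 and Oaz2 passed neither filter and Amd1 missed the proton one. Both ratios use the same control library.

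**Figure D1:**
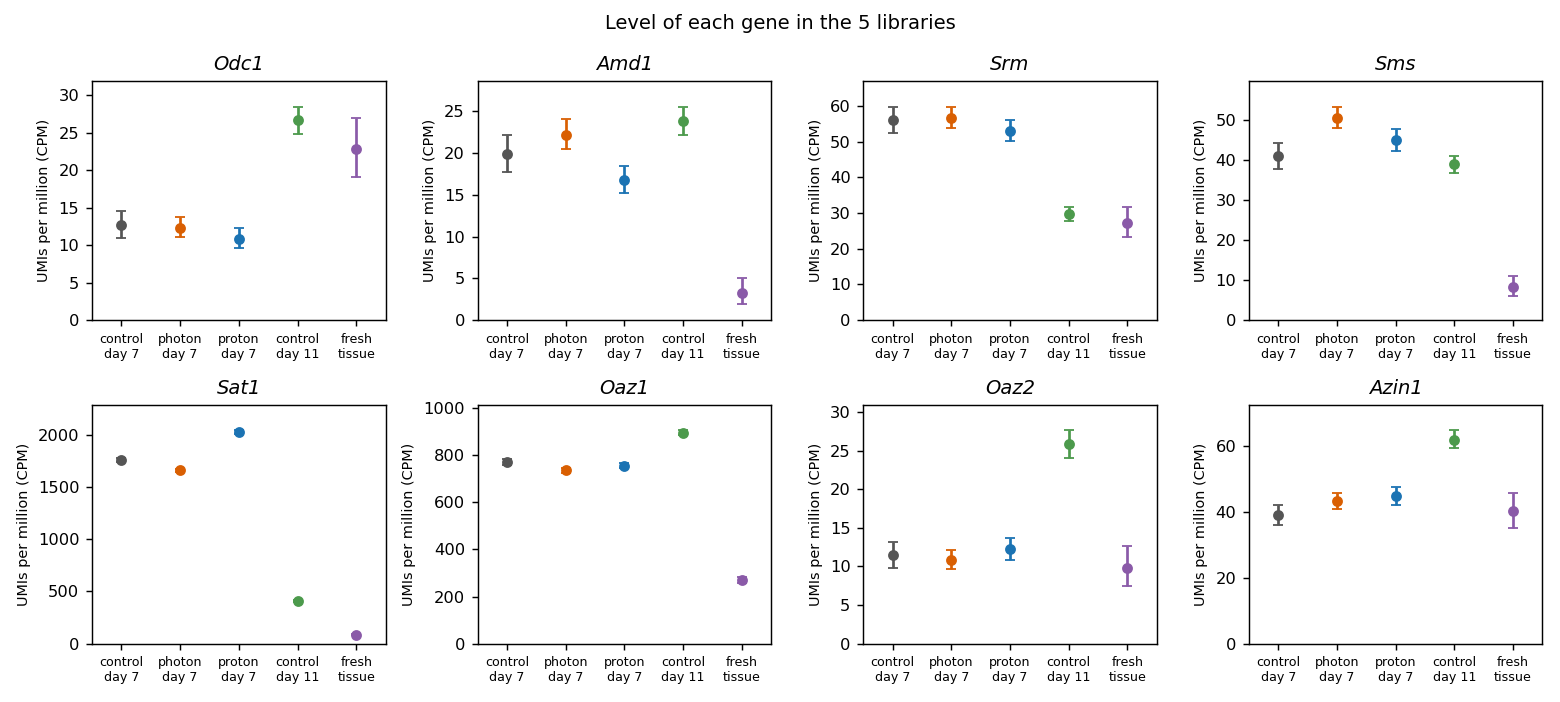
CPM of each of the 8 genes (panels, linear axes from 0) in the 5 libraries; points are 1 library each and bars are exact Poisson intervals of the count. Sat1 is highest with protons (2024 CPM) and lowest in tissue (86.4 CPM), while Odc1 and Oaz2 are highest in 11-day mSGOs (26.6 and 25.8 CPM).

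**Figure D2:**
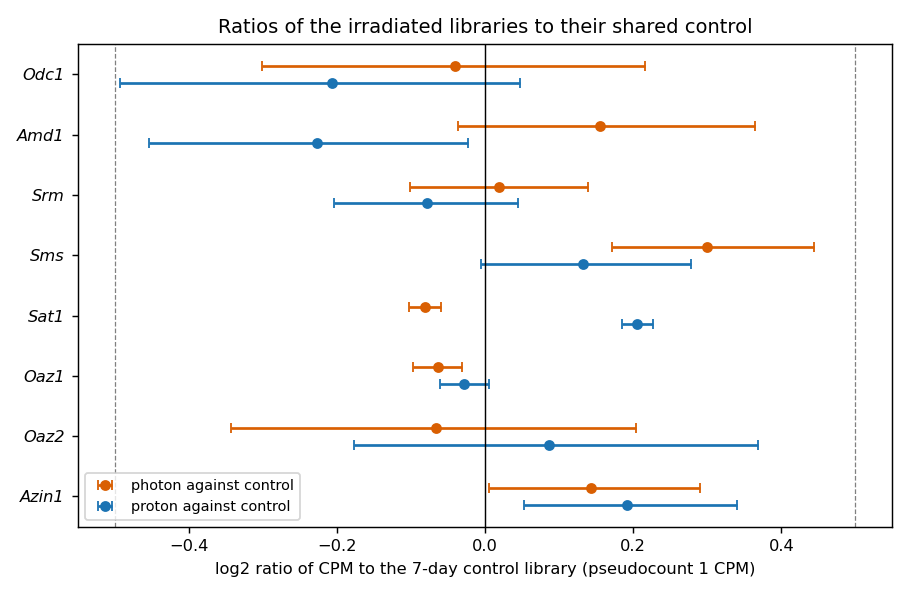
Log2 ratio of each gene after photons (orange) and protons (blue) to the shared 7-day control library; bars are exact conditional binomial intervals, which take in counting error only, and dashed lines mark 0.5 in either direction. No point lies beyond 0.5, and the photon and proton intervals of Sat1 lie on opposite sides of 0.

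The 3 libraries of 7-day mSGOs were clustered together into 6 clusters, all left without a cell type name because their leading genes were mostly not markers of 1 type. Sms was among the genes used for clustering and Amd1 was among the leading genes of cluster 2, so levels by cluster are descriptions. Cluster 5 was rich in Malat1 (median 8.53% of UMIs) and had Krt23 and Sprr1a, a precursor of the cornified envelope, among its 10 leading genes, with 3 of 14 cornifying squamous markers at 2-fold or more. Cluster 6, the deepest, had 3 of 8 basal duct markers (Trp63, Itga6, Dst), 2 of 4 stem/progenitor II markers (Itgb1, Trp63), 2 of 10 cycling markers (Mki67, Cenpf), Aqp5 and Sparc at 2-fold. Cluster 4 had the cycling genes Mki67 and Cenpf among its leading genes. Clusters 1, 2 and 4 were shallow, with medians of 1053, 796 and 889 UMIs, and had little Malat1 (medians of 0.186%, 0.166% and 0.196%). AY036118 and Gm42418 were among the leading genes of each. The 10 cycling markers summed to 749.7 CPM in cluster 6 and 658 in cluster 4 of the control, 343 and 392 CPM with photons, and 396 and 428 CPM with protons.

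Sat1 (ENSMUSG00000025283), the acetyltransferase whose upstream sequence is shown above, was the member whose photon and proton intervals lay clear of 0 on opposite sides of the control. Amd1, Srm and Oaz2 also had ratios of opposite sign, with at least 1 interval that crossed 0. Its level was 1755 CPM in the control (1735 to 1776), 1660 with photons (1645 to 1676) and 2024 with protons (2007 to 2042). In 11-day mSGOs it was 408 CPM (401 to 415) and in tissue 86.4 CPM (79.1 to 94.2), so that no 2 neighbours in the order of the 5 libraries overlapped. The log2 ratio was -0.080 for photons (-0.10 to -0.059) and 0.21 for protons (0.18 to 0.23). Neither was past the fold. With 27802 to 50121 UMIs in the 7-day libraries these intervals are narrow, and they do not cover differences between cultures.

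The sign for photons depended on which barcodes were summed. Photon barcodes had more Sat1 than control barcodes in the shallow clusters 1 (0.17), 2 (0.23) and 4 (0.20). They had less in cluster 5 (-0.15), and intervals that crossed 0 in clusters 3 and 6. With the control library's cluster weights the photon ratio was -0.0034. In barcodes with fewer than 2000 UMIs it was 0.16, and as a mean over barcodes 0.061. Proton barcodes had more Sat1 than control barcodes in all 6 clusters (0.11 to 0.47) and more than photon barcodes in all 6 (0.20 to 0.42). The proton against photon ratio was 0.29 over the whole libraries (0.27 to 0.30), with 144 of 4372 genes higher, and 0.22 to 0.45 in 18 alternatives.

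**Figure D3:**
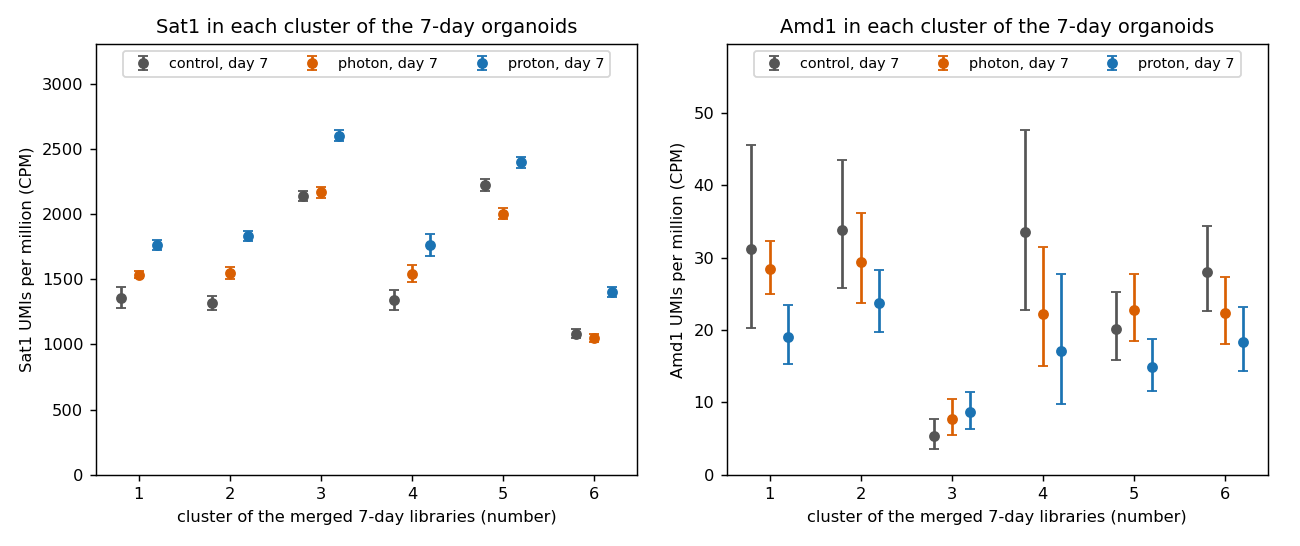
Level (CPM, linear axes from 0) of Sat1 (left) and Amd1 (right) in each of the 6 clusters of the merged 7-day libraries, by library; bars are exact Poisson intervals. For Sat1 the proton point lies above the control and photon points in every cluster, and for Amd1 all 3 libraries are lowest in cluster 3 (5.36 to 8.62 CPM).

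The photon ratio of Sat1 also varied with depth. In barcodes of 500 to 1000 UMIs, Sat1 was at 1341 CPM in the control, 1527 with photons and 1819 with protons. From 1000 to 2000 UMIs the levels were 1648, 1594 and 1826 CPM. From 2000 to 5000 they were 2019.8, 2061 and 2497 CPM, and from 5000 UMIs upwards 1818, 1497 and 1974 CPM. The photon library was thus above the control in the shallowest barcodes and below it in the deepest, while the proton library was highest in each range. The log2 ratios to control over these 4 ranges were 0.19, -0.048, 0.029 and -0.28 for photons and 0.44, 0.15, 0.31 and 0.12 for protons. Proton against photon they were 0.25, 0.20, 0.28 and 0.40.

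Sat1 UMIs were spread over most barcodes. With every barcode thinned to 1000 UMIs, which left out 3930 control, 6940 photon and 8562 proton barcodes, 78.0% of control barcodes (76.3 to 79.6) held a Sat1 UMI. With photons the share was 79.3% (78.5 to 80.1) and with protons 83.6% (82.7 to 84.5). The shares without thinning were 75.3%, 79.9% and 82.3%. Among thinned barcodes the lowest shares were in cluster 6, at 59.1%, 60.4% and 65.6% in control, photon and proton. Thinned clusters of fresh tissue went down to 2.20% of 91 barcodes, in cluster 6. The 10 barcodes with most Sat1 UMIs carried 2.57% of them in the control, 1.36% in the photon and 1.58% in the proton library. A finer clustering gave 17 clusters, and Sat1 was higher with protons than with photons in 16 of them, the exception being cluster 15 with 252 barcodes (1535 against 1620.3 CPM). Protons were above the control in 16 of the 17 as well, and below it in cluster 10 with 1215 barcodes (2098 against 2255 CPM).

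The summed levels of several marker lists differed between the 7-day libraries. The summed level of the 14 cornifying squamous markers was 4855 CPM in the control, 4938 with photons and 4004 with protons, all 14 with UMIs in each. The 10 cycling markers summed to 495, 314 and 347 CPM, the 8 luminal duct markers to 5759.9, 4863 and 5159.7 CPM and the 8 basal duct markers to 11519.9, 12433 and 12453 CPM. The stem/progenitor I list (4 genes) stood at 445, 553 and 584 CPM and the myoepithelial list at 502, 357 and 358 CPM, with 5, 7 and 6 of its 8 genes detected. Acinar markers summed to 31.0, 9.58 and 8.28 CPM, with 3, 4 and 4 of 9 detected and Smgc, Muc19, Lpo and Dcpp1 at 0 in all 3 libraries. Macrophage markers summed to 14.6, 26.6 and 23.2 CPM, with 2, 3 and 3 of 12 detected and Adgre1, C1qa and Ptprc at 0. Their part in the values of Sat1 and the other members was not tested.

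Sat1 kept its sign for protons in all 18 alternative ways of processing, over a range of 0.13 to 0.37, whereas for photons it ran from -0.21, in barcodes with at least 2500 genes, to 0.16. Amd1 ran from -0.25 to 0.34 for photons and from -0.64 to 0.0057 for protons. Both extremes of Amd1 came from the same settings, barcodes with fewer than 2000 UMIs and barcodes with under 1% Malat1.

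**Figure D4:**
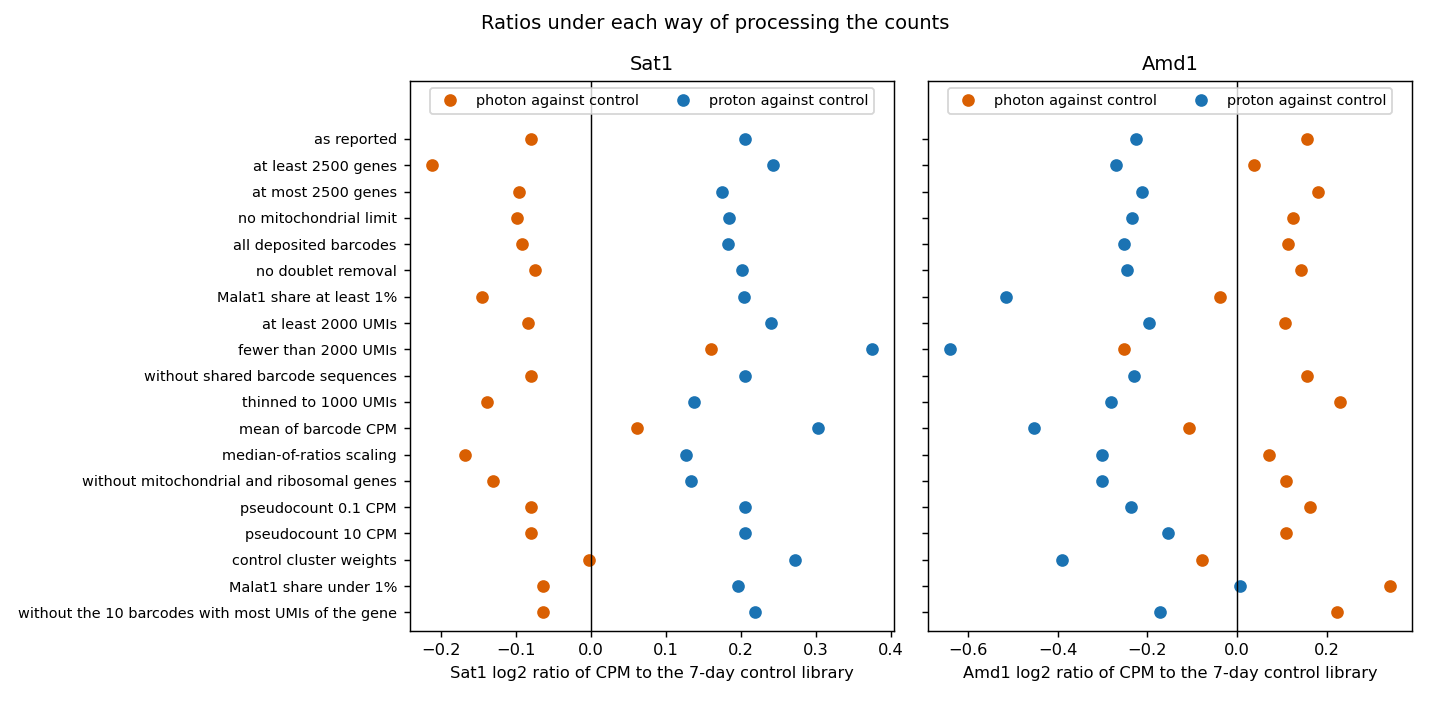
Log2 ratio of Sat1 (left) and Amd1 (right) to the 7-day control library after photons (orange) and protons (blue), as reported (top) and under 18 other ways of choosing barcodes or scaling counts; the vertical line marks 0. The proton point of Sat1 lies to the right of its photon point, and that of Amd1 to the left, in every setting.

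Proton against photon, none of the 6 members that passed the filter was past the fold, where 0.755% of 4372 genes were higher and 0.823% lower. The median of the 6 was -0.030, beside 0.022 over all genes.

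Ornithine decarboxylase and S-adenosylmethionine decarboxylase are the regulated, short-lived enzymes of synthesis. Odc1 (ENSMUSG00000011179, chromosome 12, 17544808 to 17551502) was at 12.7 CPM in the control (11.0 to 14.6), 12.3 with photons (11.0 to 13.7) and 10.9 with protons (9.61 to 12.2), and all 3 intervals overlapped. Its ratio was -0.041 after photons (-0.30 to 0.22) and -0.21 after protons (-0.49 to 0.047), with 201 to 334 UMIs a library. It was higher in 11-day mSGOs (26.6 CPM, 24.8 to 28.4) and in tissue (22.8, 19.1 to 27.0), whose intervals overlapped. In the 7-day libraries Odc1 was highest in cluster 6, at 18.8, 18.6 and 16.0 CPM in control, photon and proton, and ran down to 7.32 CPM in cluster 2 of the control. In 11-day mSGOs it was 42.7 CPM in the cycling-like cluster 10 (28.1 to 62.1, 27 UMIs).

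Odc1 was among the genes used for clustering the tissue. Its highest level there was in cluster 8, at 220 CPM (150 to 311, 32 UMIs in 53 barcodes). The granzymes Gzmc and Gzmb and the natural killer gene Nkg7 led this unnamed cluster. It had 4 of 10 cycling markers (Mki67, Top2a, Birc5, Ube2c) at 2-fold, beside 3 of 8 T or NK and 3 of 12 macrophage markers. It held 23.7% of the tissue library's Odc1 UMIs, and 1 barcode of the library held 16 of 135. The lowest levels in tissue were 2.61 CPM in cluster 3 and 4.02 CPM in cluster 2.

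Amd1 (ENSMUSG00000075232), which supplies the aminopropyl groups and whose upstream sequence is given above, was at 19.8 CPM in the control (17.7 to 22.1), 22.2 with photons (20.5 to 24.0) and 16.8 with protons (15.2 to 18.5). It stood at 23.8 CPM in 11-day mSGOs (22.1 to 25.5) and 3.21 CPM in tissue (1.93 to 5.01, 19 UMIs). The photon and proton intervals did not overlap, while the control overlapped with both. The Amd1 ratio to control was 0.16 after photons (-0.037 to 0.36), with an interval that crossed 0, and -0.23 after protons (-0.45 to -0.023). The proton library was 0.38 lower than the photon library (log2 ratio -0.38, -0.59 to -0.22). That last difference lay between -0.51 and -0.26 in all 18 alternative ways of processing. By cluster the photon ratio to control ran from -0.57 to 0.45, and all 6 intervals crossed 0. The proton ratio to control was -0.68 in cluster 1 (-1.35 to -0.016), -0.49 in cluster 2 (-0.96 to -0.041), -0.94 in cluster 4 (-1.94 to -0.061) and -0.59 in cluster 6 (-1.08 to -0.15). It was -0.41 in cluster 5 and 0.60 in cluster 3, with intervals that crossed 0. The proton against photon ratio had the same sign in 5 of 6 clusters and the other sign in cluster 3 (0.14, -0.47 to 0.80). Its near-copy Amd2, named here after its values were seen, had 16, 24 and 37 UMIs in control, photon and proton libraries.

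By depth, Amd1 was at 32.8 CPM in the control, 28.9 with photons and 23.2 with protons in barcodes of 500 to 1000 UMIs. From 1000 to 2000 UMIs it was at 29.0, 25.3 and 15.8 CPM, and from 2000 to 5000 at 16.5, 13.9 and 9.002 CPM. In these 3 ranges the photon intervals crossed 0 (-0.18, -0.19 and -0.23) and the proton intervals did not (-0.48, -0.84 and -0.81). From 5000 UMIs upwards the levels were 15.8, 20.3 and 17.6 CPM, with ratios of 0.34 for photons (0.012 to 0.70) and 0.15 for protons (-0.20 to 0.51). The proton library was thus below the photon library in each of the 4 ranges and above the control in the deepest. The proton against photon interval crossed 0 in the shallowest range (-0.30, -0.64 to 0.011) and in the deepest (-0.19, -0.56 to 0.15).

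Summed over whole libraries, neither synthase, Srm or Sms, was past the fold with either radiation. Srm (ENSMUSG00000006442, chromosome 4, 148591513 to 148594619) was at 56.0 CPM in the control (52.4 to 59.8), 56.7 with photons (53.9 to 59.6) and 53.0 with protons (50.2 to 55.9). It was lower in 11-day mSGOs, at 29.7 CPM (27.9 to 31.7), and in tissue, at 27.2 CPM (23.1 to 31.7). Sms (ENSMUSG00000071708, chromosome X, 157443851 to 157492287) was at 40.9 CPM in the control (37.8 to 44.1), 50.5 with photons (47.9 to 53.3) and 44.9 with protons (42.3 to 47.6). It stood at 38.8 CPM in 11-day mSGOs and 8.27 CPM in tissue. The photon library was highest for Sms and apart from the others. The ratio was 0.30 for photons (0.17 to 0.44), where it lay between 0.21 and 0.41 in 18 alternatives, and 0.13 for protons (-0.0057 to 0.28). By cluster, Sms was higher than the control with photons in clusters 4 (0.63, 0.043 to 1.26) and 5 (0.45, 0.13 to 0.81) and with protons in cluster 3 (0.33, 0.033 to 0.65), and its other intervals to control and all those of Srm crossed 0. Both synthases were highest in cluster 6 in each 7-day library, Srm at 75.3 to 85.6 CPM and Sms at 62.4 to 71.2 CPM.

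Summed over whole libraries, none of the antizymes and their inhibitor was past the fold with either radiation. Oaz1 (ENSMUSG00000035242, chromosome 10, 80826656 to 80829290) was at 769 CPM in the control (755 to 783), 736 with photons (725 to 746) and 754 with protons (743 to 765). It was 894 CPM in 11-day mSGOs and 269 CPM in tissue. Its photon ratio was -0.064 (-0.097 to -0.031), with the other sign in 3 of 18 alternatives, and its proton ratio was -0.028 (-0.061 to 0.0051), from -0.12 to 0.12 in the alternatives. By cluster its photon intervals all crossed 0, while protons were higher in clusters 4 (0.26, 0.094 to 0.42) and 6 (0.11, 0.040 to 0.19) and lower in cluster 3 (-0.060, -0.12 to -0.0041). The last 500 bases of its GENCODE transcript share 36.6% of 50-base words with the pseudogene Oaz1-ps, which was not in the gene list, so its counts are less certain. The shares were 17.7% for Odc1, 2.44% for Sat1 and 0 for the other members, none of them with a gene in the list.

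Oaz2 (ENSMUSG00000040652, chromosome 9, 65676548 to 65690300) was at 11.4 CPM in the control (9.82 to 13.2), 10.9 with photons (9.67 to 12.2) and 12.2 with protons (10.9 to 13.7). Those 3 intervals overlapped with each other and with tissue (9.79, 7.43 to 12.7), and 11-day mSGOs lay above them (25.8, 24.1 to 27.6). In cluster 5 of the 7-day libraries Oaz2 was lower in the control (3.75 CPM, 14 UMIs) than with photons (8.05 CPM, log2 ratio 0.93, 0.17 to 2.11) and with protons (9.39 CPM, 1.13, 0.42 to 2.31). The intervals to control in the other 5 clusters crossed 0. In tissue, 35 of 58 Oaz2 UMIs were in the endothelial-like cluster 7, led by Ptprb, Pecam1 and Cavin2, at 148 CPM (103 to 206). In the other endothelial-like cluster, 6, it was at 10.2 CPM with 2 UMIs.

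Azin1 (ENSMUSG00000037458, chromosome 15, 38487430 to 38519294) was at 39.0 CPM in the control (36.0 to 42.2), 43.2 with photons (40.8 to 45.7) and 44.7 with protons (42.1 to 47.4), all overlapping with the next. Tissue was at 40.2 CPM (35.2 to 45.6), and 11-day mSGOs stood above the rest at 62.0 CPM (59.3 to 64.8). Ratios to control were 0.14 for photons (0.0050 to 0.29) and 0.19 for protons (0.053 to 0.34), and each had the other sign in 1 of 18 alternatives. Both were highest in barcodes with under 1% Malat1, at 0.46 for photons and 0.54 for protons, the latter past the fold. By cluster, Azin1 was higher with photons (0.70, 0.31 to 1.17) and protons (0.57, 0.17 to 1.05) in cluster 3 and with protons in cluster 2 (0.55, 0.15 to 0.99), and the other intervals to control crossed 0.

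Levels also varied across clusters. Cluster 3 of the 7-day libraries had little Malat1 (median 0.0676% of UMIs) and a median depth of 2926 UMIs, and there Amd1 was lowest in every library at 5.36, 7.71 and 8.62 CPM in control, photon and proton. Azin1 was also lowest there, at 13.98, 23.3 and 21.3 CPM against 33.8 to 59.8 elsewhere. Oaz1 was highest there, at 998, 961 and 957 CPM, while it was 501 to 515 CPM in the Malat1-rich cluster 5. Sat1 was high in clusters 3 and 5 (2000.5 to 2601 CPM) and lowest in cluster 6 of each library (1048 to 1405 CPM). How far Malat1 or depth enters into these levels was not tested.

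Over the 18 sums of 1 cluster in 1 library, the 28 pairs of members gave Pearson correlations of log2(CPM + 1) from -0.77 (Sms with Sat1) to 0.76 (Amd1 with Azin1). Oaz1 and its inhibitor Azin1 gave -0.72, Odc1 with Sat1 -0.72 and Srm with Oaz1 0.69. The points share libraries, and clusters differ in depth and Malat1, so these values describe the 18 sums and no more. Of 8972 genes with at least 200 UMIs, the most like Odc1 over these sums were Ldah (r = 0.87), Supt16 (0.86), Snx4 (0.86), Phf10 (0.85) and Polr2d (0.85).

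Against the 7-day control, 11-day mSGOs had 3 members past the fold upwards (Oaz2 1.11, Odc1 1.02, Azin1 0.66) and 2 downwards (Sat1 -2.10, Srm -0.89) of 8 that passed the filter. Of all 6623 genes tested, 65.1% were higher and 10.7% lower by that much, and their median ratio was 0.97. Relative to that median Odc1 was 0.050, Oaz2 0.15 and Azin1 -0.31, whereas Sat1 was -3.06 and Srm -1.85. These calls depended on the scaling. With median-of-ratios scaling, which puts the all-gene median at -0.068, no member was past the fold upwards (Odc1 0.0065, Oaz2 0.11, Azin1 -0.39). Downwards, 5 were past it (Sat1 -3.16, Srm -1.92, Sms -1.11, Oaz1 -0.84, Amd1 -0.76). The share of all genes past the fold was not computed under that scaling, so these counts cannot be weighed against it. Azin1 was also short of the fold in barcodes with at least 1% Malat1 (0.17). Age of the culture, batch of animals, run and Cell Ranger version (7.0.0 against 3.0.1) cannot be told apart in this comparison.

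The 11-day mSGOs formed 12 clusters. Cluster 8, with 621 of 9484 barcodes, had Sprr2d, Psca, Krt6b and Krt13 among its leading genes and 8 of 14 cornifying markers at 2-fold, so that it was cornifying squamous-like. Sat1, which was among the genes used for this clustering, was highest in cluster 8, at 974 CPM (939 to 1010), and lowest in the cycling-like cluster 10, at 199 CPM (166 to 237). Sms was 66.4 CPM in cluster 10 (47.8 to 89.7), and Amd1 was 14.2 CPM in cluster 8 (10.3 to 19.1), below every other cluster that held an Amd1 UMI. Cluster 12, with 32 barcodes, held no Amd1 UMI.

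Against the 7-day control, fresh tissue had Odc1 past the fold upwards (0.80, 0.52 to 1.17) and 4 members downwards (Sat1 -4.33, Sms -2.17, Oaz1 -1.51, Srm -1.02) of 6 that passed. In this comparison 6.56% of 4254 genes were higher and 87.4% lower, with a median of -1.78. The Odc1 ratio ran from 0.23, without mitochondrial and ribosomal genes, to 2.05, in barcodes with at least 1% Malat1, and was also short of the fold in all deposited barcodes (0.30) and without the 10 barcodes with most Odc1 UMIs (0.48), which held 32.6% of the tissue library's. In barcodes with at least 1% Malat1 (158 in tissue), Sms (-0.39) and Oaz1 (-0.048) were short of the fold. With median-of-ratios scaling, which puts the all-gene median at -0.77, Oaz1 (-0.46) and Srm (0.0097) were short of it and Azin1 was past it upwards (1.07), whereas Azin1 was -0.55 without mitochondrial and ribosomal genes. Relative to the all-gene median as reported Odc1 was 2.58, Azin1 1.82, Srm 0.76 and Oaz1 0.27, and Sms was -0.40 and Sat1 -2.55. Within tissue, Sat1 ran from 20.6 CPM in cluster 5 and 21.3 in cluster 1 to 321 in the endothelial-like cluster 7 and 695 in cluster 9 (607 to 792). Cluster 9, led by S100a8, Retnlg and S100a9 and with 11 of 12 macrophage markers at 2-fold, was not named. It held 43.9% of the tissue library's Sat1 UMIs in 48 barcodes, and Oaz1 was also highest there (864 CPM, 766 to 972).

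**Figure D5:**
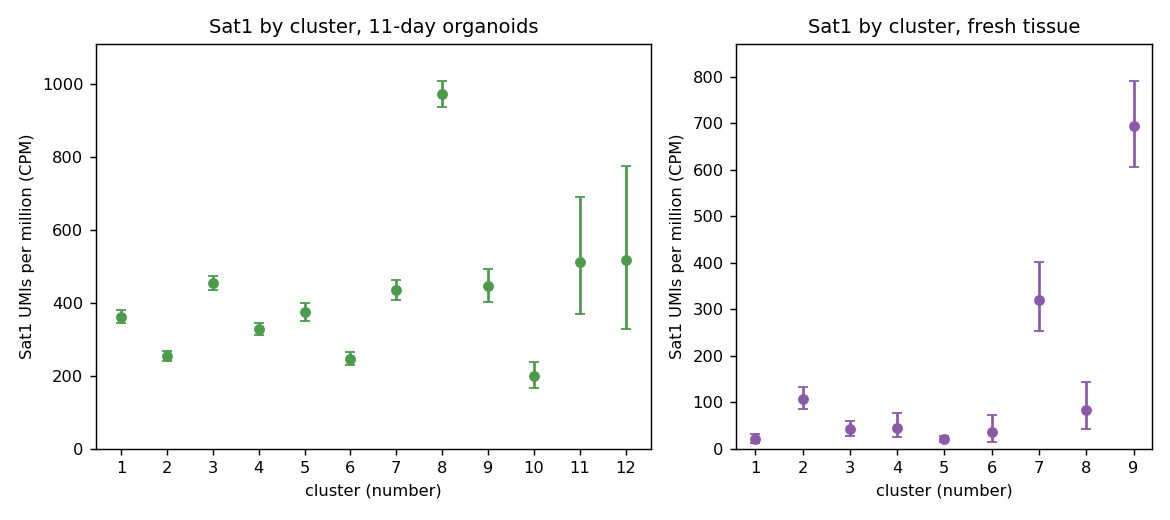
Sat1 level (CPM, linear axes from 0) in the 12 clusters of 11-day mSGOs (left) and the 9 clusters of fresh tissue (right), with exact Poisson intervals. Cluster 8 of the 11-day mSGOs (974 CPM) and cluster 9 of the tissue (695 CPM) have the highest points.

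Other genes of the pathway were taken from 6 lists. Of 7 other polyamine metabolism genes, 2 passed the filter and none was past the fold with either radiation. Smox, spermine oxidase, was at 33.5, 31.0 and 37.0 CPM in control, photon and proton libraries, and Paox, which oxidises acetylated polyamines, at 21.4, 20.4 and 22.6 CPM. Sat2 had 34 UMIs or fewer in each. Azin2, another antizyme inhibitor, had 7.64, 10.4 and 12.2 CPM and was below the 20 CPM of the filter. The list medians were -0.089 for photons and 0.11 for protons, beside 0.081 and 0.10 over all genes. The share of all genes past the fold, 4.14% higher and 2.30% lower for photons and 4.76% and 2.32% for protons, is the background for this and the following lists, where counts of 0 among so few genes are near it.

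Of 19 arginine and ornithine metabolism genes, 2 passed and none was past the fold, with list medians of -0.12 and 0.095. Ass1, which makes arginine's precursor, was at 202, 178 and 210 CPM. Oat, which diverts ornithine to proline and glutamate, was at 92.4, 89.4 and 102 CPM. The arginine transporter Slc7a1 was at 15.4, 14.7 and 12.4 CPM.

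Of 11 polyamine transport genes, 4 passed and none was past the fold, with medians of -0.027 and 0.052. Slc3a2, the heavy chain of amino acid exchangers, was at 171, 171 and 197 CPM, Cav1 at 54.3, 61.7 and 59.3, Atp13a3 at 56.2, 53.9 and 55.5, and Gpc1 at 39.6, 34.9 and 33.6 CPM. Atp13a2, which moves polyamines out of lysosomes and is named here after its values were seen, was at 2.72, 6.16 and 4.85 CPM with 43 UMIs in the control.

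Of 4 hypusine pathway genes 2 passed, with medians of -0.076 and 0.076. Eif5a, the protein that spermidine modifies, was lower by 0.30 after photons (-0.33 to -0.26) and by 0.22 after protons (-0.25 to -0.19), at 825, 672 and 709 CPM. Dhps, which starts the modification, was at 26.3, 29.1 and 34.3 CPM, and Dohh, which completes it, at 18.2, 19.7 and 17.4 CPM. Eif5a2 had 27 UMIs or fewer in each. Of 9 methionine cycle and salvage genes 4 passed, with medians of 0.23 and 0.21 and none past the fold. Mtap, which recovers methionine from the by-product of the synthases, was at 38.7, 47.4 and 48.4 CPM, and Mri1, the next enzyme of that salvage route, at 43.0, 51.9 and 50.8 CPM. The subunits of S-adenosylmethionine synthesis were Mat2b at 66.4, 75.7 and 76.0 CPM and Mat2a at 57.3, 53.3 and 53.7 CPM.

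Of 10 Myc network genes, which include known regulators of Odc1 and Srm, 5 passed for photons with none past the fold and a median of 0.17, and 6 for protons with 1 past it and a median of 0.20. The background for that 1 is 4.76% of genes higher and 2.32% lower with protons, and all-gene medians were 0.081 and 0.10. The gene past the fold was Myc itself, at 51.1 CPM in the control, 66.7 with photons and 79.3 with protons, with ratios of 0.38 (0.26 to 0.50) and 0.62 (0.51 to 0.75). Mxi1 was 0.44 and 0.42 higher, and Max and Mxd1 lay between -0.090 and 0.13.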

How the data were processed

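The deposited files hold raw counts, 10x Genomics 3′ UMIs per gene and barcode, which the authors made with Cell Ranger. The submitters' processing notes name version 5 and build mm10, the study's methods name another mouse build, and the file headers give 3.0.1 for the 7-day and tissue libraries and 7.0.0 for the 11-day library. All deposited barcodes had at least 500 UMIs. Barcodes with at least 200 genes and under 5% mitochondrial UMIs were kept, and doublets were scored with Scrublet in scanpy 1.11.5. Its automatic threshold served the photon library, where 1355 were removed. In the others it marked under 0.5%, so the highest scores were removed up to 0.8% per 1000 barcodes (378 control, 2559 proton, 855 11-day and 16 tissue). Filters left 1402 of 13547 tissue barcodes.

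UMIs were summed per library and per cluster. Clusters came from 2000 variable genes, 30 principal components, 15 neighbours and Leiden resolution 0.8 (leidenalg 0.10.2), run separately for the merged 7-day libraries, the 11-day library and the tissue. Among the variable genes were Sms at 7 days, Sat1 at 11 days and Odc1 in tissue. A cluster was named only from listed markers at 2-fold or more. Intervals are exact (Poisson for CPM, conditional binomial for ratios, Clopper-Pearson for shares; scipy 1.17.1). Ratios are log2(CPM + 1) differences. Intervals of ratios come from the counts without the pseudocount, which draws the printed ratio towards 0 at low CPM. There the ratio need not lie near the middle of its interval. With 1 library per group no paired or replicate test exists. The calculation was tested on simulated data. Named genes were the 8 members, up to 4 of the genes with most 7-day UMIs of each pathway list, those most like Odc1, and Azin2 and Smox; Amd2 and Atp13a2 were added after their values were seen. The members and lists were chosen with earlier results of these data known. A few genes are not reported here.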

Additional observations from a re-analysis of the deposited data

Results flagged for a closer look

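Sat1 lay on opposite sides of the control library in the irradiated libraries. Its log2 ratio was -0.080 after photons and 0.21 after protons, with 1 library each. The photon ratio had the other sign in 2 of 18 alternatives, up to 0.16 in barcodes with fewer than 2000 UMIs. It was also above 0 in clusters 1 (0.17), 2 (0.23) and 4 (0.20). The difference between the ratios was not tested, and the same control library enters both.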

How the results depend on the processing

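Members past the fold numbered 0 for photons in all 20 alternatives. For protons they numbered 1 with Malat1 under 1% (Azin1), proton against photon 1 in thinned barcodes (Amd1), and for 11-day mSGOs 3 at a fold of 1 on the log2 scale. Their range over the alternatives was 3 to 7 for 11-day mSGOs, with 7 in the 115 barcodes with Malat1 under 1%, and 4 to 6 for tissue; the share of all genes past the fold was computed for the reported setting and not for these alternatives. The settings on Malat1 under 1% and on the top 10 barcodes were chosen after seeing the data.

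Among ratios whose counting interval excluded 0, signs turned as follows, and the cause was not tested. For photons, Oaz1 was 0.025 with at least 1% Malat1, 0.074 with fewer than 2000 UMIs and 0.0040 as a mean of barcode CPM, Sat1 was 0.16 and 0.061 in the last 2 of these, and Azin1 was -0.18 with fewer than 2000 UMIs. For protons, Azin1 was -0.16 with at least 2500 genes and Amd1 0.0057 with Malat1 under 1%. Proton against photon, Sms was 0.015 in thinned barcodes. For 11-day mSGOs, Amd1 was -0.17 with fewer than 2000 UMIs and also -0.17 as a mean of barcode CPM. Median-of-ratios scaling moved the 11-day all-gene median from 0.97 to -0.068 and gave Amd1 -0.76, Oaz1 -0.84 and Azin1 -0.39. Without mitochondrial and ribosomal genes Amd1 was -0.078 and Oaz1 -0.13. Median-of-ratios scaling moved the tissue median from -1.78 to -0.77 and gave Srm 0.0097. Ratios to control whose interval crossed 0 also took both signs, from -0.25 to 0.34 for Amd1, -0.34 to 0.25 for Srm, -0.32 to 0.36 for Oaz2 and -0.12 to 0.14 for Odc1 with photons, and from -0.36 to 0.11 for Srm, -0.12 to 0.12 for Oaz1, -0.13 to 0.52 for Oaz2 and -0.091 to 0.33 for Sms with protons. So did proton against photon Azin1 (-0.43 to 0.21), Oaz2 and Odc1, 11-day Sms, and Azin1 and Oaz2 in tissue. The highest Sat1 cluster level was 2141, 2176 and 2601 CPM in control, photon and proton at resolution 0.4 and 2255, 2171 and 2604 CPM at 1.2, against 2223, 2166 and 2601 CPM as reported. No paired analysis was possible because each group has 1 library. Depth limits Odc1 and Oaz2 at 7 days.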
